A study of Bubalus bubalis with 8 samples.

Results

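Among the transcripts stored in the buffalo oocyte, a small group of 64 gene IDs stood high in the oocyte and in the 2-cell embryo, low in the 4-cell and 8-cell embryos, and high again in the morula and the blastocyst. Water buffalo (Bubalus bubalis) embryos had been made by parthenogenetic activation, in which an oocyte develops without sperm, so every transcript measured came from the maternal genome, either stored in the oocyte or newly transcribed. There was 1 RNA sequencing library for each of 8 stages: the immature oocyte at the germinal vesicle stage (GV), the mature oocyte arrested in metaphase II (MII), cleaving embryos of 2, 4, 8 and 16 cells, morula and blastocyst, all obtained in vitro. Animal, age, breed, the activating agent and the number of oocytes or embryos per library are not stated in the labels. The study set out to follow how maternal transcripts change over this period.

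The 64 were chosen from these measured values by a fixed rule, among the 18220 numbered IDs (the word gene and a number) of the 28659 IDs in the authors' FPKM table. FPKM is the number of sequenced fragments per kilobase of transcript, scaled to the fragments of the whole library, so it gives a share of a library and not an amount per embryo. Levels were taken as log2(FPKM + 1), and the lowest of the GV, MII and 2-cell values is called the early minimum. A member had at least 10 FPKM in each of those 3 libraries and a difference between MII and GV oocyte under 2 log2 units. It lay at least 1.5 log2 units under the early minimum in both the 4-cell and the 8-cell library (the dip), and no more than 1 log2 unit under it in both the morula and the blastocyst (the return). The 16-cell library does not enter the rule. All 64 passed the 10 FPKM minimum in the GV, MII and 2-cell libraries because the rule requires it, and 18 were at or above it in all 8 libraries. The libraries used by the rule give a description of the members and no test, and with 1 library per stage no difference between stages has a replicate check.

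A mammalian oocyte stops transcription as it completes its growth and relies on stored maternal mRNA until the embryonic genome is switched on. Stored mRNAs are destroyed in waves, at meiotic maturation and after activation, largely through removal of their poly(A) tails. In cattle, a related bovid, major activation of the embryonic genome comes several cleavages after fertilisation, and genes whose stored copies have been cleared may then be transcribed anew. None of the 64 member IDs, and none of the 28659 IDs, matched an identifier, symbol or accession that RefSeq lists for the buffalo assembly NDDB_SH_1, so roles, oocyte markers and sequences are not given, and at most 2 IDs per direction are named for each comparison. The name maternal therefore rests on the GV and MII values alone.

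FPKM values summed to 892286 at 8 cells, the lowest of the libraries, to 2501133 at the morula stage, the highest, and to 2239886 at the blastocyst stage. Relative to the 8-cell sum, the morula sum was 1.49 log2 units higher and the blastocyst sum 1.33 log2 units higher. When every library was rescaled to the same sum, 26 of the 64 still met the rule. Of the 64, 31 then missed the return, 16 missed the dip and 2 missed the 10 FPKM minimum or the oocyte difference, some of them more than one. For median-of-ratios scaling, each library was divided by its median ratio to the geometric mean of all 8 libraries. Only IDs above 0 in every library entered that median. Under median-of-ratios scaling, 48 of the 64 still met the rule. There were 20 members under both of these scalings and under an equal sum over numbered IDs. Sequencing depth is unknown, and how RNA was captured from the oocytes and embryos is unknown. If poly(A) RNA was captured, a change in transcript level and a change in poly(A) tail length cannot be told apart in these values. In whole embryos, fewer cells of a type and less RNA per cell cannot be told apart.

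The median member had 65.7 FPKM at GV, 65.3 FPKM at MII and 36.5 FPKM at 2 cells. It then had 7.42 FPKM at 4 cells and 7.86 FPKM at 8 cells, followed by 36.4 FPKM at 16 cells, 67.9 FPKM at the morula stage and 91.8 FPKM at the blastocyst stage. The quartiles over members were 37.4 and 153 FPKM at GV, 3.29 and 17.1 FPKM at 8 cells and 38.1 and 188 FPKM at the blastocyst stage. The rule requires the low 4-cell and 8-cell levels, and morula and blastocyst levels near or above the early minimum. It does not fix the 16-cell value, the order of the GV, MII and 2-cell values or how high the return goes. Over all 4930 numbered IDs that met the oocyte part of the rule, the medians were 55.6 FPKM at GV, 53.2 FPKM at 4 cells, 47.3 FPKM at 8 cells, 25.8 FPKM at 16 cells and 22.4 FPKM at the blastocyst stage.

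**Figure D1:**
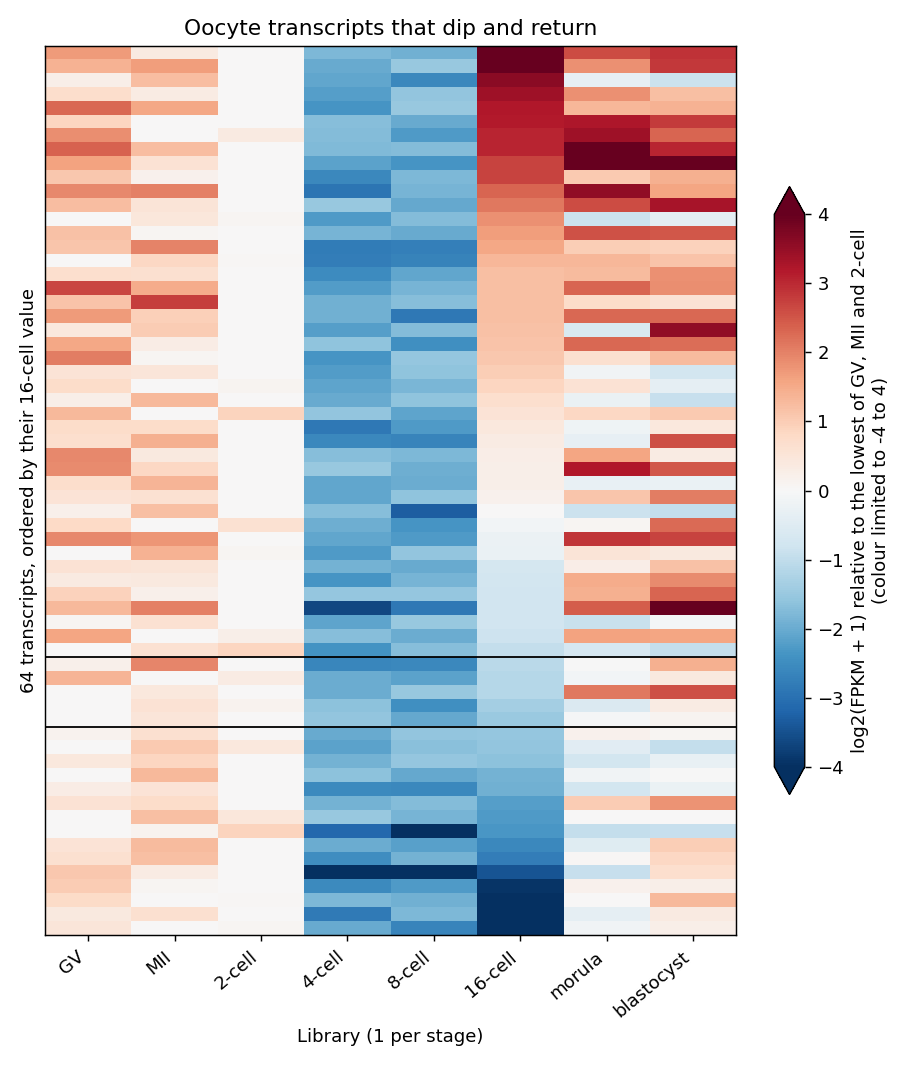
Each row is 1 of the 64 transcripts that dip and return, and each column is 1 library. Colour gives log2(FPKM + 1) relative to the lowest of the GV, MII and 2-cell values, with the scale limited to -4 to 4, and black lines part the 44 transcripts back at the early level in the 16-cell library (top), the 5 between and the 15 still low (bottom). The 4-cell and 8-cell columns are low and the last 2 columns near or above 0 by the rule, whereas the 16-cell column runs from high to low.

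Together the 64 transcripts held 1.20% of the FPKM sum at GV, 1.04% at MII and 0.796% at 2 cells. They held 0.0804% at 4 cells and 0.0945% at 8 cells, and then 0.627% at 16 cells, 0.465% at the morula stage and 0.801% at the blastocyst stage. A single member, gene28331, made up much of the oocyte share. Without it, the other 63 held 0.561% at GV, 0.0793% at 4 cells, 0.0945% at 8 cells, 0.600% at 16 cells and 0.553% at the blastocyst stage. These shares do not depend on rescaling a library to another sum.

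A dip of this kind was uncommon among stored transcripts. Of the 4930 numbered IDs that met the oocyte part, 167 dipped in both the 4-cell and the 8-cell library (3.39%). Another 167 were that low in the 4-cell library only and 60 in the 8-cell library only. The return part of the rule was often met, by 2258 of the 4930 in both the morula and the blastocyst (45.8%). It asks only for the level in those libraries and not for an earlier fall. Of the 2258, 2194 did not meet the dip, and their median levels were 0.42 log2 units at 4 cells and 0.32 at 8 cells above the early minimum. For them, returned and back name the later level alone. Among the 167 that dipped, 64 returned (38.3%), against 2194 of the 4763 that did not dip (46.1%). The share was thus lower among dipped than among undipped transcripts, and it was also lower under each scaling, at 19.5% against 31.1% with equal sums and 37.7% against 49.9% with median-of-ratios scaling. Dip and return are both measured from the same early minimum, so a high minimum makes the dip easier and the return harder to meet. A lower share among dipped transcripts is therefore favoured in advance, under every scaling. It is a comparison of counts with no test. Of the 103 that dipped and did not return in both libraries, 82 were back in neither, 17 in the blastocyst only and 4 in the morula only.

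**Figure D2:**
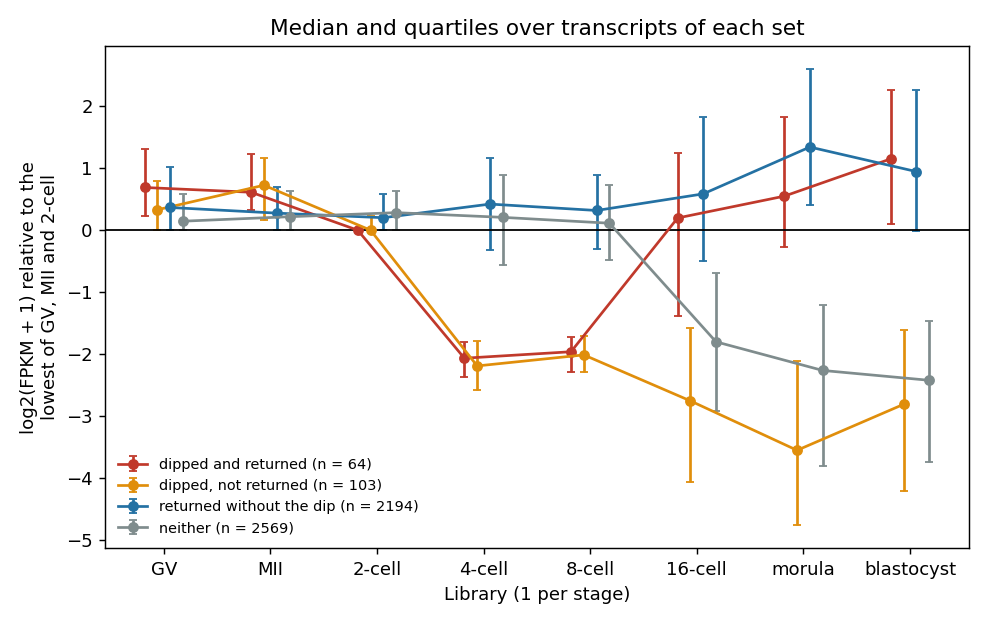
Points give the median log2(FPKM + 1) relative to the lowest of the GV, MII and 2-cell values in each library, and bars the quartiles over transcripts, for 64 transcripts that dipped and returned, 103 that dipped only, 2194 that returned without the dip and 2569 with neither. The sets that dipped are low at the 4-cell stage by definition, with medians of -2.07 and -2.19. They part at the 16-cell stage, at 0.20 and -2.76.

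In FPKM, without the 1 added for the log2 levels, the dip of the median member was over 4-fold in both the 4-cell and the 8-cell library. In the 4-cell embryo the median member was at 21.2% of its lowest FPKM of the GV, MII and 2-cell libraries (quartiles 16.7% and 25.0%), and in the 8-cell embryo at 23.2% (quartiles 16.2% and 28.5%). Relative to the early minimum, the median level was -2.07 log2 units at 4 cells and -1.96 at 8 cells. Of the 64, 15 were 2 or more log2 units under the early minimum in both libraries and 2 were 3 or more under it. The 4-cell and 8-cell levels were within 1 log2 unit of each other for 59 of 64 members (92.2%), close to the 93.9% of all 4930 IDs. By the rule of size, a difference of 2 or more log2 units where the higher of both values reached 10 FPKM, no member was higher in the 8-cell than in the 4-cell embryo (0 of 64) and 1 was lower. Of all numbered IDs compared, 0.824% were higher and 1.97% lower, and 32 members were under 10 FPKM in both libraries.

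The 2 members with the deepest dip were gene28331 and gene17334. The first measured 7366 FPKM at GV, 4412 at MII, 3525 at 2 cells, 11.2 at 4 cells, 0.000101 at 8 cells, 321 at 16 cells, 1860 at the morula stage and 5561 at the blastocyst stage. Its mean 4-cell and 8-cell level was -9.98 log2 units relative to the early minimum, and it alone made up 0.642% of the GV sum and 0.248% of the blastocyst sum.

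The other, gene17334, measured 70.5 FPKM at GV, 77.7 at MII, 133 at 2 cells, 7.16 at 4 cells, 0.00390 at 8 cells, 13.3 at 16 cells, 35.6 at the morula stage and 36.4 at the blastocyst stage. Its mean dip was -4.64 log2 units. Both were close to 0 in the 8-cell library and not in the 4-cell library, and both were still low in the 16-cell library. A value this close to 0 in a table of estimated FPKM was not checked against reads, and what produced it was not tested.

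Many members were lower at the 2-cell stage than in either oocyte, but the rule also used the 2-cell value. A low 2-cell value lowers the early minimum, which makes the return easier and the dip harder to meet. The counts are thus a description of members chosen partly on this value. The 2-cell library held the lowest of the GV, MII and 2-cell values for 45 of the 64 (70.3%), against 59 of the 103 that dipped only (57.3%), 821 of the 2194 that returned without the dip (37.4%) and 1620 of all 4930 (32.9%). With equal sums the counts were 32 of the 64 (50%) and 863 of all 4930 (17.5%), and with median-of-ratios scaling 52 (81.2%) and 1895 (38.4%). The median difference of the 2-cell embryo from the MII oocyte was -0.61 log2 units in members, against 0.01 over all numbered IDs compared. Few were past the rule of size at that step, with 3 of 64 lower and 0 higher in the 2-cell embryo, against 1.91% lower and 1.8% higher of all numbered IDs compared. From the 2-cell to the 4-cell embryo, a step the rule used, 41 of the 64 were lower and 0 higher by the rule of size, beside 5.51% lower and 3.85% higher of all numbered IDs compared. The MII level was not mostly above or below the GV level: 33 of 64 members were higher in MII (51.6%), against 49.7% of all 4930. The rule leaves no member past 2 log2 units between these libraries, beside 2.73% higher and 6.15% lower in MII of all numbered IDs compared.

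The 16-cell library took no part in the choice of members, and in it the majority were already back. Back and low are measured from the early minimum, however, from which the rule also measures the dip and the return. The shares back and low are thus partly set by the choice. Of the 64, 44 were no more than 1 log2 unit under the early minimum (68.8%), 15 were still 1.5 or more under it (23.4%) and 5 lay between. Of all 4930 IDs that met the oocyte part, 54.6% were back and 36.7% low by the same limits. The median 16-cell level of members was 0.20 log2 units above the early minimum (quartiles -1.38 and 1.24), against -0.76 over all 4930. The sign of the members' median turned with equal sums, to -0.14, whereas over all 4930 it was then -0.87. With equal sums and the same 64, 40 were back (62.5%), against 52.6% of all 4930.

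Members stood between the sets they share a part with. In the 16-cell library, 18 of the 103 that dipped without returning were back (17.5%), as were 1835 of the 2194 that returned without the dip (83.6%). The median of the 103 was -2.76 log2 units and that of the 2194 was 0.59. The morula and blastocyst values chose both the members and the 2194, but set the 103 apart, so the 2194 are the nearer comparison. The dip, which parts members from the 2194, is measured from the same early minimum as back and low. A high minimum makes the dip easier and being back harder to meet. A lower share back and a higher share low among members are therefore favoured in advance. In the 16-cell library, the share back was 68.8% of the members against 83.6% of the 2194, and the share low was 23.4% against 10.7%. For these same sets, chosen on the deposited values, the order held with equal sums, at 62.5% against 81.4% back and 23.4% against 11.8% low, and with median-of-ratios scaling, at 71.9% against 86.0% back and 18.8% against 9.16% low. When the sets were chosen again with equal sums, the order of the share low turned: 22 of 26 members were back (84.6%) and 1 was low (3.85%), against 88.0% back and 7.31% low of the 1450 that then returned without the dip. Chosen again with median-of-ratios scaling, 69.2% of 52 members were back and 26.9% low, against 83.9% and 10.3% of the 2292. With 1 library per stage, neither difference has a test.

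**Figure D3:**
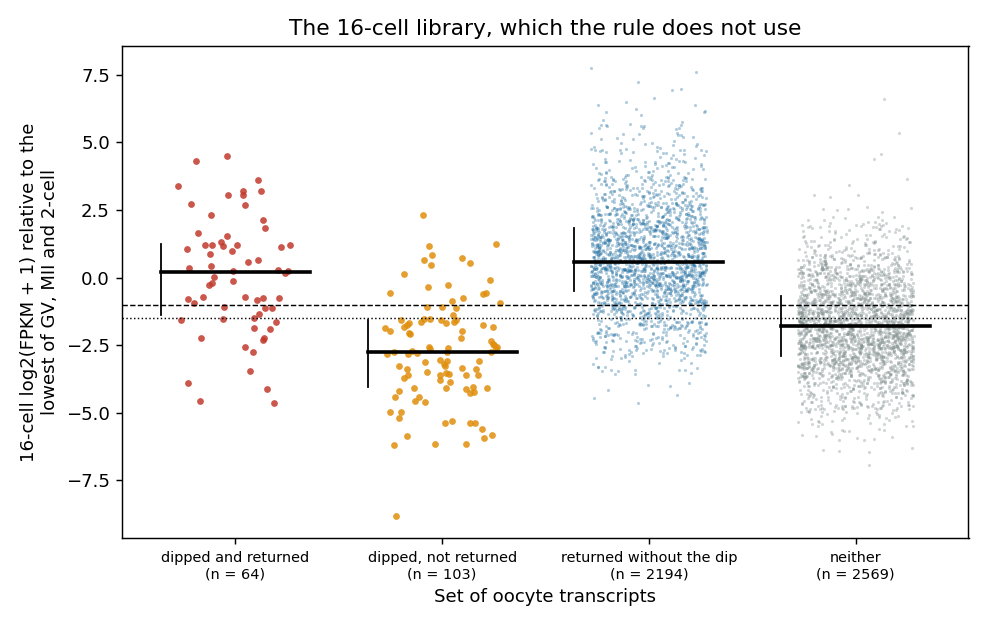
Each point is the 16-cell log2(FPKM + 1) of 1 transcript relative to its lowest GV, MII or 2-cell value, for the 4 sets of oocyte transcripts. Horizontal bars are medians, vertical bars span the quartiles, the dashed line is the limit for back (-1) and the dotted line that for low (-1.5), and the 64 that dipped and returned spread from -4.64 to 4.51 with a median of 0.20.

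Set against the 8-cell embryo, the 16-cell embryo was higher by 2 or more log2 units for 38 of the 64 members and lower for 1, beside 23.6% higher and 24.1% lower of all numbered IDs compared. The 8-cell values were chosen to be low, so a rise from them is partly built into the choice. Of the 64, 8 were under 10 FPKM in both libraries. Set against the GV oocyte, which the rule used, 5 of 64 members were higher in the 16-cell embryo and 16 were lower, beside 21% higher and 27.3% lower of all numbered IDs compared. The 16-cell value exceeded the highest of the GV, MII and 2-cell values by 1 log2 unit or more for 9 members (14.1%), against 11.7% of all 4930 and 23.9% of the 2194 that returned without the dip. A wide range of early values makes this harder to meet. That range was under 1 log2 unit for 40.6% of members, against 60.7% of the 2194.

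The highest 16-cell levels relative to the early minimum belonged to gene4705 and gene15098. gene4705 measured 57.6 FPKM at GV, 22.4 at MII, 17.1 at 2 cells, 4.23 at 4 cells, 3.77 at 8 cells, 409 at 16 cells, 110 at the morula stage and 133 at the blastocyst stage. It stood 4.51 log2 units above its early minimum in the 16-cell library, its highest library.

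gene15098 measured 33.3 FPKM at GV, 40.5 at MII, 12.0 at 2 cells, 2.19 at 4 cells, 3.55 at 8 cells, 254 at 16 cells, 45.4 at the morula stage and 91.0 at the blastocyst stage. Its 16-cell level was 4.30 log2 units above the early minimum. In both, the 16-cell level lay above the morula and blastocyst levels. The 16-cell library held the highest of all 8 values for 10 of the 64 members (15.6%), against 8.95% of all 4930.

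The lowest 16-cell levels belonged to gene3212 and gene9145, in which the dip lasted to the 16-cell stage. gene3212 measured 91.5 FPKM at GV, 65.3 at MII, 69.4 at 2 cells, 15.5 at 4 cells, 9.54 at 8 cells, 1.66 at 16 cells, 58.8 at the morula stage and 76.5 at the blastocyst stage. Its 16-cell level was -4.64 log2 units relative to the early minimum, below both the 4-cell and 8-cell levels.

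gene9145 measured 464 FPKM at GV, 551 at MII, 356 at 2 cells, 49.8 at 4 cells, 101 at 8 cells, 14.1 at 16 cells, 280 at the morula stage and 454 at the blastocyst stage. Its 16-cell level was -4.56 log2 units relative to the early minimum. The 16-cell library held the lowest of all 8 values for 8 of the 64 members (12.5%), against 21.4% of all 4930. The 4-cell library held it for 31 and the 8-cell library for 25, beside 8.46% and 6.53% of all 4930. The dip part of the rule favours these 2 libraries.

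The members back in the 16-cell library and those still low had similar median dips and different median returns. The rule chose all of them for a dip of at least 1.5 log2 units and set no upper limit on the return. A contrast of this kind is thus partly set by the choice. The 44 that were back had median levels relative to the early minimum of -2.09 in the 4-cell and -1.93 in the 8-cell embryo, and the 15 that were low had medians of -2.01 and -1.91. In the morula the median was 1.30 for the 44 and -0.15 for the 15, and in the blastocyst 1.59 for the 44 and 0.23 for the 15. The 44 had medians of 54.8 FPKM at GV, 31.2 FPKM at 2 cells, 68.5 FPKM at 16 cells and 71.7 FPKM at the morula stage. The 15 had 91.5 FPKM at GV, 73.5 FPKM at 2 cells, 11.1 FPKM at 16 cells and 58.8 FPKM at the morula stage. Across the 64, the 16-cell level and the mean morula and blastocyst level, both relative to the early minimum, correlated at Pearson's r of 0.50 and Spearman's rho of 0.51. These points share the early minimum and the libraries, so the coefficients are a description.

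How far the return went depended on the scaling of the libraries. As deposited, 39 of the 64 were at or above their lowest early FPKM in both the morula and the blastocyst (60.9%), whereas with equal sums 20 were (31.2%). As deposited, in the morula the median member was at 148% of its lowest early FPKM (quartiles 82.3% and 371%), and in the blastocyst at 226% (quartiles 108% and 493%). With equal sums the same medians were 63.5% in the morula (quartiles 32.1% and 136%) and 99.5% in the blastocyst (quartiles 52.0% and 210.0%). On the log2 scale, the median level relative to the early minimum was 0.55 in the morula and 1.15 in the blastocyst as deposited, and turned to -0.62 and -0.01 with equal sums. Median-of-ratios scaling gave 0.70 at the morula stage and 1.47 at the blastocyst stage. The morula and blastocyst were both above the highest of the GV, MII and 2-cell values for 22 of the 64 (34.4%), both within the range of those values for 12 (18.8%), and both at least 1 log2 unit above the highest for 6 (9.38%). Of the 2194 that returned without the dip, 46.6% were above the highest in both, 8.02% within the range and 25.3% at least 1 log2 unit above. A wide early range makes levels above the highest rarer and levels within the range more common. The range was under 1 log2 unit for 26 of the 64 (40.6%), against 60.7% of the 2194. As deposited, the medians of the 2194 relative to the early minimum were 1.34 in the morula and 0.95 in the blastocyst, beside 0.55 and 1.15 in members. With equal sums, 5 of the 64 (7.81%) and 23.8% of the 2194 were above the highest in both. The blastocyst was higher than the GV oocyte by 2 or more log2 units for 5 of 64 members and lower for 0, beside 25.4% higher and 28.8% lower of all numbered IDs compared. The rule sets how far a member can fall below its early level, so the count of 0 says nothing of its own. With equal sums it was 3.

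Over the last pair of stages, most members were at a higher level in the blastocyst than in the morula, which has no test here. The blastocyst was above the morula for 39 of the 64 (60.9%), against 31.4% of the 2194 that returned without the dip and 36.9% of all 4930. The 103 that dipped only stood at 60.2%. With equal sums the count of members was 47 of 64 (73.4%), against 37.8% of the 2194, and with median-of-ratios scaling 46 (71.9%), against 36.2%. Few differences were large: 4 members were higher and 0 lower in the blastocyst than in the morula by the rule of size, beside 11.2% higher and 5.9% lower of all numbered IDs compared. The morula and blastocyst levels were within 1 log2 unit for 52 of 64 (81.2%), against 66.7% of the 2194, 55.3% of the 103 and 61.7% of all 4930. The rule sets a floor for both levels in the members and in the 2194, so this is a description. At the step before, from the 16-cell embryo to the morula, 16 members were higher and 3 lower in the morula, beside 19.1% higher and 15.4% lower.

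gene17860 and gene5140 had the highest return. gene17860 measured 247 FPKM at GV, 121 at MII, 80.1 at 2 cells, 17.5 at 4 cells, 14.7 at 8 cells, 528 at 16 cells, 1740 at the morula stage and 2651 at the blastocyst stage. Its mean morula and blastocyst level was 4.73 log2 units above the early minimum, and its blastocyst level was 3.42 log2 units above its GV level.

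gene5140 measured 61.3 FPKM at GV, 101 at MII, 24.2 at 2 cells, 1.04 at 4 cells, 2.50 at 8 cells, 13.8 at 16 cells, 135 at the morula stage and 1352 at the blastocyst stage. Its mean return was 4.09 log2 units, and its blastocyst level was 4.44 log2 units above its GV level. gene17860 was above all of its early values by the 16-cell stage, while gene5140 was still below all of its early values there.

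**Figure D4:**
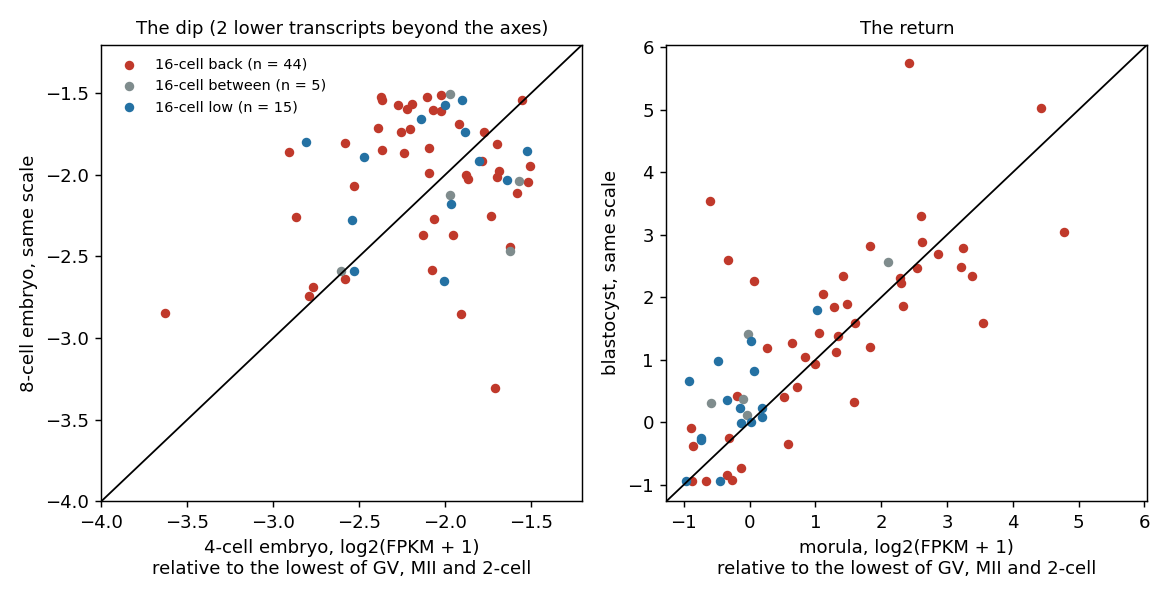
Left, the 8-cell against the 4-cell level of the members, and right, the blastocyst against the morula level, each as log2(FPKM + 1) relative to the lowest of the GV, MII and 2-cell values, with the diagonal marking equal levels. Colour gives the 16-cell class (44 back, 5 between, 15 low), and the 2 transcripts with the deepest dip lie beyond the axes on the left. The blastocyst exceeds the morula, above the diagonal on the right, for 39 of the 64.

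Among the members, the depth of the dip and the height of the return were weakly correlated. The rule cut off both values, so a weak correlation here cannot say how dip and return relate in other transcripts. Across the 64, the mean dip and the mean return correlated at Pearson's r of 0.15 and Spearman's rho of 0.14, although both are taken relative to the same early minimum. The 4-cell and 8-cell levels correlated at r = 0.84, but at 0.34 without gene28331, and at a rho of 0.11. The morula and blastocyst levels correlated at r = 0.74 and a rho of 0.76. All are across 64 genes of single libraries, and are a description.

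Membership was decided close to the limit of the dip. Of the 64 members, 33 had their higher dip value within 0.25 log2 units of the limit of -1.5. The members nearest to it were at -1.50461 and -1.50765, and the nearest transcripts left out were at -1.49332 and -1.48504. At the limit of the return, -1, the nearest members were at -0.964 and -0.947 and the nearest left out at -1.08 and -1.09, with 9 members within 0.25. The lowest early levels of members were 10.2 and 10.5 FPKM, and 9.75 and 9.35 FPKM just outside the minimum of 10 FPKM. For the difference between MII and GV oocyte, under 2 log2 units, the nearest were 1.96 and 1.86 inside and 2.01 and 2.30 outside.

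A dip of at least 1 log2 unit in place of 1.5 gave 158 transcripts and one of at least 2 gave 15. The 2-cell and 8-cell libraries weighed most on the choice. Without the 2-cell library the rule found 157 transcripts, 54 of the 64 among them, and without the 8-cell library it found 117, which included all 64. The share back in the 16-cell library was 72.6% of the 157 and 71.8% of the 117.

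**Figure D5:**
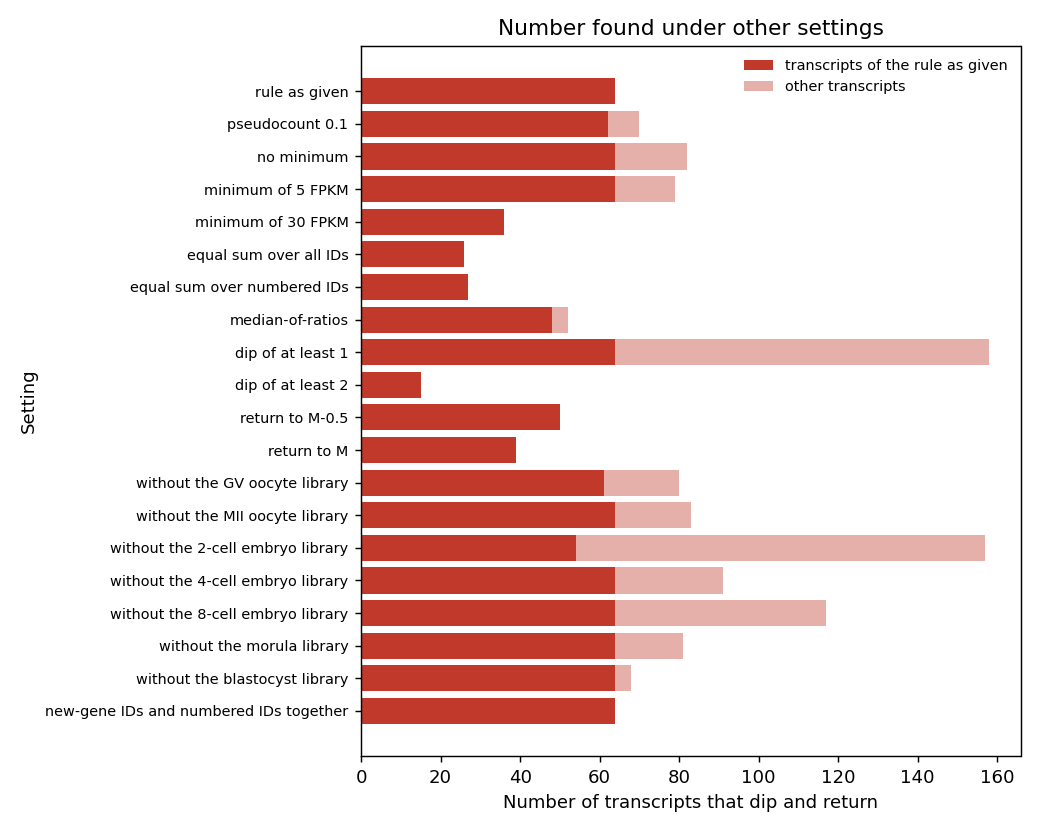
Bars give the number of transcripts that dip and return under the rule as given and under each other setting, with those shared with the 64 in dark red and others in pale red. The number runs from 15 with a dip of at least 2 log2 units to 158 with a dip of at least 1, and is 26 with libraries rescaled to the same sum over all IDs.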

How the data were processed

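The authors deposited 1 table of FPKM values, per the file's name, with 8 library columns, each tied to its stage by the sample's description and title. The aligner, genome build, annotation and filters behind it are not stated in the labels or the file, and the labels' extraction text, which speaks of another tissue, was not used, so RNA capture and library preparation are unknown. The deposited FPKM values are not counts. For consecutive stages, among IDs whose values both lay at 0.005 to 0.3 FPKM, 1.45% to 5.34% shared the commonest ratio within a window of 0.02 log2 units, so reads were not recovered and depth is unknown.

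Levels were computed as log2(FPKM + 1), a pseudocount of 1, which understates the folds of low IDs. The members and lists were chosen with earlier results of these data known. With 1 library per stage no test was made between stages. Counts follow the rule of size (2 log2 units, at least 10 FPKM in the higher library). Named were the 2 members with the deepest mean dip, the 2 with the highest mean return, and the 2 highest and 2 lowest in the 16-cell library, each relative to the early minimum. Gene lists and cell type markers could not be matched to the IDs and were not scored. Alternatives were other pseudocounts, minimums, scalings and limits, and leaving out libraries. Whether the rule picks out planted dips was checked on simulated data, which does not bear on the measured libraries. Python 3.11.15, pandas 2.3.3, NumPy 2.4.6, SciPy 1.17.1 and matplotlib 3.10.9 were used.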

Additional observations from a re-analysis of the deposited data

How the results depend on the processing

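The number of members (64) stayed within 1.5 times under 11 of 19 alternatives. It was 36 with a minimum of 30 FPKM, 26 with equal sums over all IDs, 27 with equal sums over numbered IDs, 158 with a dip of at least 1 log2 unit, 15 with one of at least 2, and 39 with a return to the early minimum itself. Leaving out 1 library of the rule at a time gave 68 (without the blastocyst) to 157 (without the 2-cell library). Those back in the 16-cell library (44) were 22 with a minimum of 30 FPKM, 22 and 23 with the 2 equal sums, 118 and 9 with the shallower and deeper dip, and 46 to 114 when 1 library was left out. Those still low there (15) were 1 with either equal sum, 28 and 5 with the 2 dips, 6 with a return to the early minimum, and 15 to 30 when 1 library was left out. The share of dipped IDs that returned (38.3%) was 19.5% and 19.9% with equal sums, 23.8% with a dip of at least 2, 29.9% and 23.4% with a return to 0.5 or 0 log2 units under the early minimum, and 26.2% (without the GV oocyte) to 48.5% (without the morula) when 1 library was left out. For the same 64 members, the median 16-cell level relative to the early minimum (0.20) was 0.20 with a pseudocount of 0.1, 0.43 with median-of-ratios scaling, and turned to -0.14 and -0.18 with the 2 equal sums. With equal sums, 3 members (over all IDs) and 5 (over numbered IDs) lay below their GV level at the blastocyst stage by the rule of size, against 0, and 3 were higher in either case, against 5. Fewer IDs are tested with a higher minimum, and more pass a looser limit. What caused the remaining moves was not tested. Entering new-gene IDs, an alternative chosen after seeing the data, added no member. Choosing the compared sets again within each scaling, and rescaling the morula and blastocyst levels, were likewise added after seeing the data. The gene lists were not run. No paired analysis was possible because each stage has 1 library. With depth unknown, no limit that counting sets on low values can be stated.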

Other observations

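Among the IDs that the authors name as new genes, no transcript met the whole rule. Of the 10439 new-gene IDs, 521 met the oocyte part of the rule, 21 of these dipped in the 4-cell and 8-cell libraries, 29 were back in the morula and blastocyst, and 0 did both. Of the 4930 numbered IDs that met the oocyte part, 3.39% dipped, 45.8% were back and 1.30% did both. With so few new-gene IDs meeting either part, the count of 0 says little about this shape.

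The mirror shape was also present among stored transcripts, chosen after the values were seen. Of the 4930 numbered IDs that met the oocyte part, 46 were at least 1.5 log2 units above their highest GV, MII or 2-cell value in both the 4-cell and the 8-cell embryo. Of these, 30 (65.2%) were no more than 1 log2 unit above it in both the morula and the blastocyst, against 80.1% of the 4884 that were not raised. Raised and back are both measured from the same highest early value, so a low value makes being raised easier and being back harder. The lower share among raised IDs is thus partly built in, and the comparison has no test.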
